A study of Mus musculus with 50 samples.

Results

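The cytochrome P450 genes of the mouse were followed across kidney, liver and skin fibroblasts, in young and old animals and after a treatment named 3C. Members were the genes of the count tables whose symbols carry the full Cyp name of family number, subfamily letter and gene number, leaving out Cyp7a1, Cyp8b1, Cyp27a1, Cyp24a1 and Cyp27b1, the 5 bile acid and vitamin D enzymes. This gave 94 of 24984 genes, in 13 families and 34 subfamilies, with 61 genes in families 1 to 3, 20 in family 4 and 13 in the remaining families. RNA sequencing covered 10 groups of C57BL/6 mice or cells. Kidney and liver came from untreated young mice aged 2.5 months and untreated old mice aged 23 to 25 months, with 4 libraries in each group, and the methods give these animals as female. Kidney and liver also came from 20 to 21 month old mice given DMSO, the solvent control, or 3C, again with 4 libraries in each group, and skin fibroblasts labelled P9 mice received DMSO or 3C, with 3 libraries in each. Neither the labels nor the methods say what 3C or P9 is, and nothing states that the libraries of a group came from separate animals or cultures, so p-values measure the spread between these libraries. Accessible chromatin was profiled by ATAC-seq, which marks open DNA, in young and old kidney and liver with 3 libraries per group.

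P450 enzymes are heme proteins, mostly held in the endoplasmic reticulum, that insert an oxygen atom into lipophilic substrates with electrons passed on by P450 oxidoreductase. Families 1 to 3 mainly clear drugs, toxins and steroids, family 4 hydroxylates the end of fatty acid chains, and the smaller families make or break down steroid hormones, sterols and retinoic acid. The liver is their main site, several are made in the kidney tubule, and in the mouse many differ between the sexes under the control of growth hormone and androgens. Genes of a subfamily often lie side by side in clusters and resemble each other closely.

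The 38 RNA libraries held 14238228 to 43704147 counted reads. Levels are given as CPM, counts scaled to a common library size and corrected for library composition by TMM, and levels of different genes are compared only per length, as CPM per kb of exon unless another length is named. The untreated series and the DMSO and 3C series were tallied differently by the authors and are set side by side without a test. Old kidney replicate 2 stood apart. In that library the hepatocyte transcript Alb reached 2110 CPM against 11.3 to 38.9 CPM in the other old kidneys, and 21 P450 genes rich in liver had a median of 1.13% of what they showed in old liver, against at most 0.0431% in the other kidney libraries. Values of liver P450 genes in old kidney are therefore given with that library named. All kidney libraries expressed the proximal tubule markers at 7460 to 21689 CPM in sum, all liver libraries the hepatocyte markers at 103853 to 354449 CPM, and all fibroblast libraries the fibroblast markers at 10699 to 14106 CPM, as their labels say. The 4 Y-linked genes had 0 counts in all 32 kidney and liver libraries. In the fibroblasts they summed to 70.9 to 79.7 CPM, and Xist, the RNA of the inactive X chromosome, was also present at 49.8 to 65.1 CPM. Whether those cells mix both sexes was not tested. Because tissue was sequenced in bulk, fewer cells of a type and less RNA per cell cannot be told apart.

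Most P450 genes were liver genes. Of 71 members tested between young kidney and young liver, 54 were lower in kidney and 7 were higher, against 16.9% and 25.7% of all genes tested, and 10 were not called. A call required an adjusted p under 0.05 in edgeR's quasi-likelihood test with Benjamini-Hochberg adjustment over all genes, together with a fold above 2 or below 0.5. Members averaging at least 100 CPM numbered 41 in young liver, 39 in old liver, 8 in young kidney, 10 in old kidney and 1 in the fibroblasts. Members took 3.18% of all counts in young liver, 2.36% in old liver, 0.461% in young kidney and 0.51% in old kidney. At the low end, 6 members had 0 counts in all 38 libraries, among them Cyp19a1, the aromatase, and Cyp11b2, the aldosterone synthase of the adrenal cortex. A further group stayed low, so that 22 members in all were under 1 CPM on average in every group, and 18 members passed the count filter of no comparison.

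In young liver Cyp2e1, which oxidises ethanol and other small molecules, had the highest level per kb, at 5214 CPM per kb. Cyp2c69, of the arachidonic and linoleic acid metabolising Cyp2c group, was at 1964 CPM per kb. The order below Cyp2e1 depends on the length used, since exon length sums all transcripts of a gene. Per kb of the longest coding transcript Cyp2e1 was at 6139, Cyp3a11 at 2071, Cyp2c69 at 2038 and Cyp2c29 at 1793 CPM per kb, while per kb of exon Cyp3a11 was at 953 and Cyp2c29 at 1045 CPM per kb. Young kidney was led by the arachidonic acid epoxygenase Cyp2j5 at 486 CPM per kb, ahead of Cyp2d26 at 221, Cyp4a10 at 216 and Cyp4a14 at 203 CPM per kb. Cyp2j5 was abundant in both young tissues, with overlapping levels, at 1064, 1074, 1279 and 1142 CPM in kidney and 1235, 1279.8, 1527 and 1512 CPM in liver, and was not called (log2 fold change -0.30, SE 0.15, edgeR adjusted p = 0.0927). Its close relative Cyp2j11 was found in kidney and hardly in liver, at 208 to 226 CPM in the 4 young kidneys and 0 counts in the 8 untreated livers. The other members higher in young kidney were Cyp2d12, Cyp1b1, Cyp2s1, Cyp4a31, Cyp4a12b and Cyp4b1. In fibroblasts Cyp1b1, which acts on polycyclic aromatic hydrocarbons and estradiol, was the leading member, at 20.1 CPM per kb with DMSO.

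**Figure D1:**
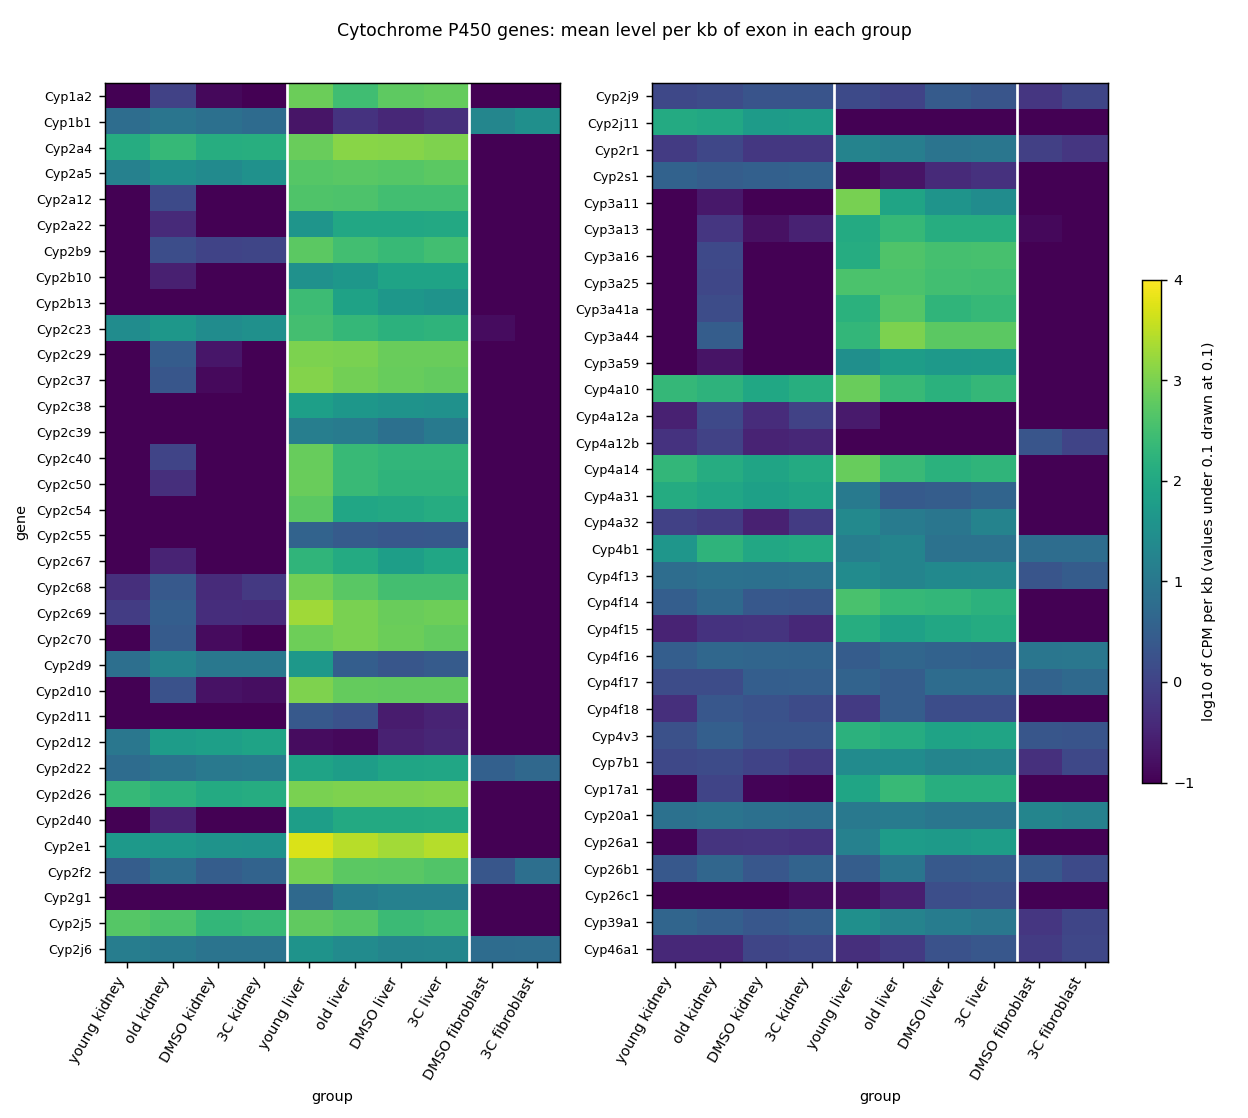
Mean level of the 67 members that reached 1 CPM per kb of exon in at least 1 group, as colour on a log10 scale, with members in rows by subfamily and the 10 RNA groups in columns. The liver columns are filled for most families, the kidney columns mainly for Cyp2d, Cyp2j, Cyp4a and a few others, and the fibroblast columns for very few.

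In DMSO-treated mice the same tissue contrast gave 48 members lower and 10 higher in kidney of 69 tested, against 15.7% and 26.6% of all genes. Cyp2d9, a testosterone hydroxylase that is abundant in male liver, was called in opposite directions in the 2 tissue contrasts. It was lower in young kidney (18.5, 16.0, 13.0 and 22.3 CPM) than in young liver (103, 119, 131 and 146 CPM), with a log2 fold change of -2.85 (SE 0.19, edgeR adjusted p = 5.65e-08). In the DMSO mice it was higher in kidney (29.6, 19.5, 24.2 and 33.4 CPM) than in liver (5.88, 2.53, 3.08 and 11.6 CPM), with a log2 fold change of 2.22 (SE 0.37, edgeR adjusted p = 0.000191). The tissues did not overlap in either series. The difference between the 2 contrasts was not tested, because they come from the separately handled series.

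With age, 6 of 42 members tested rose in kidney and none fell, against 5.68% of all genes higher and 0.407% lower. They were the Cyp2 genes Cyp2d12, Cyp2d9 and Cyp2a5 and the family 4 genes Cyp4b1, Cyp4f18 and Cyp4a12a. The median log2 fold change of the 42 members was 0.60 and that of all genes tested 0.02. Without old kidney replicate 2, the library with liver transcripts, the median of the same 42 members was 0.39 beside 0.03 for all genes, and 7 were called, the same 6 and Cyp2a4. Of the 42 members, 10 lay higher in every old kidney than in any young kidney and 4 lower, where 9.50% and 10.1% of all genes did. By adjusted p alone 10 members were higher, against 8.15% of all genes, and none lower, against 3.36%. The called members other than Cyp4a12a were among the 10 without overlap.

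Cyp2d12 (chr15:82555072-82560403, plus strand, GRCm38), a Cyp2d gene next to Cyp2d9, made the largest move among the 6. It stood at 31.6, 40.6, 33.4 and 40.5 CPM in the young kidneys and 270.2, 171, 296 and 182 CPM in the old ones. The lowest old kidney was well above the highest young one, and the rise was 6.51-fold (log2 fold change 2.70, SE 0.19, edgeR adjusted p = 0.000173). The liver held almost none of it, at 0.264 to 0.908 CPM when young and 0.0882 to 0.897 CPM when old. Cyp2d9 went from 18.5, 16.0, 13.0 and 22.3 CPM to 40.7, 44.1, 61.5 and 47.3 CPM in kidney, 2.88-fold higher without overlap (log2 fold change 1.53, SE 0.18, edgeR adjusted p = 0.00126). Another member of the cluster, Cyp2d26, was not called (log2 fold change -0.39, SE 0.20), and Cyp2d22 was higher by adjusted p but below the fold limit (log2 fold change 0.52, SE 0.13).

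Cyp4b1, which hydroxylates medium-chain fatty acids and activates protoxins, was at 96.4, 70.5, 103 and 105 CPM in young kidney and 248, 322, 595 and 479 CPM in old kidney. All old kidneys were above all young ones, by 4.56-fold (log2 fold change 2.19, SE 0.27, edgeR adjusted p = 0.00131). Per kb of exon it was the third member of old kidney, at 182 CPM per kb, after Cyp2j5 at 381 and Cyp2a4 at 225 CPM per kb. Cyp4f18, an enzyme that inactivates leukotriene B4 in neutrophils and other leukocytes, was low, at 0.487, 0.525, 1.52 and 1.01 CPM in young and 3.00, 4.15, 2.67 and 7.20 CPM in old kidney. It was 5.18-fold higher without overlap (log2 fold change 2.37, SE 0.47, edgeR adjusted p = 0.0108), on 72 reads in the young and 720 in the old libraries. In the same comparison all 4 macrophage markers measured were higher, with sums of 66.1 to 83.8 CPM in young and 202 to 332 CPM in old kidney, as were all 3 plasma cell markers, at 4.04 to 8.4 and 253 to 355 CPM. The 5 fibroblast markers summed to 209 to 238 CPM in young and 199, 354, 244 and 403 CPM in old kidney, with Thy1 called higher. The 4 adipocyte markers summed to 217 to 423 CPM in young and 95.7, 54.2, 288 and 46.7 CPM in old kidney, with Lep called higher and none lower, and both lists overlapped between the ages. The part of these cells in the Cyp4f18 result and the other kidney results was not tested.

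Cyp2a5, the coumarin hydroxylase, went from 28.8, 31.0, 31.4 and 41.1 CPM to 57.6, 56.2, 89.6 and 52.2 CPM, a 2.0-fold rise (log2 fold change 1.0, SE 0.18, edgeR adjusted p = 0.00722). The groups did not overlap, but the fold sat at the limit. The call was lost in 8 of 14 alternatives, on the fold and not on the adjusted p. The log2 fold change was 0.98 by DESeq2, 0.99 with RLE size factors and 0.997 with no filter on low counts, and fell to 0.93, 0.96, 0.96 or 0.82 on the log2 scale without young replicate 1, 2 or 3 or old replicate 3. Cyp4a12a, an arachidonic acid hydroxylase that makes 20-HETE, had 0.753, 0.675, 1.11 and 0.290 CPM in young and 1.03, 1.77, 3.33 and 6.43 CPM in old kidney. Its groups overlapped (log2 fold change 2.25, SE 0.60, edgeR adjusted p = 0.0381), and the call was lost without any young replicate or without old replicate 3 or 4, with edgeR adjusted p-values of 0.0617 to 0.119. Without old replicate 4 its log2 fold change was 1.58. Sequence windows of 150 bases of its transcript matched another P450 gene in 25.6% of positions. In the untreated series reads that aligned to more than 1 place were tallied apart from the gene counts. Reads that fit both Cyp4a12a and its neighbour Cyp4a12b may therefore be missing from both values. That neighbour was not called (log2 fold change 0.94, SE 0.51, edgeR adjusted p = 0.238).

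Among 7 members known to be higher in male than in female kidney, 3 rose with age in these kidneys (Cyp2d9, Cyp4b1 and, overlapping and lost in 7 of 14 alternatives, Cyp4a12a), beside 5.68% of all genes. Of the 7, 6 had estimates above 0, beside 52.2% of all genes, and the median log2 fold change was 1.35, beside 0.02 over all genes. Cyp2j13, another of the 7, went from 0.266, 0.937, 0.995 and 0.917 CPM to 0.576, 2.06, 1.43 and 3.31 CPM and was not called (edgeR adjusted p = 0.144). By contrast, the 4 members under control of the fatty acid sensor PPARA were all below 0 and none was called, with a median of -0.32. Ppara itself was at 101 to 151 CPM in young and 57.3 to 88.1 CPM in old kidney, without overlap (log2 fold change -0.78, SE 0.17, edgeR adjusted p = 0.0177, short of the fold limit). Cyp2j5 was at 910.1, 834, 1036 and 791 CPM in old kidney, below every young value, and was not called (log2 fold change -0.30, SE 0.12, edgeR adjusted p = 0.128). The 5 proximal tubule markers summed to 16006 to 21689 CPM in young and 17111, 8723, 17748 and 9426 CPM in old kidney, with none called, and the 2 low libraries, replicates 2 and 4, were also the lowest old ones for Cyp2j5. The 5 fasting and PPARA response genes outside the family overlapped, at 964 to 1922 CPM in young and 787 to 972 CPM in old kidney in sum, with 1 called lower. The part of these in the values of the PPARA members and Cyp2j5 was not tested. Of 35 tested partners of the P450 system, which include electron donors, heme enzymes and regulators, none was called in kidney, 13 lay above and 22 below 0.

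**Figure D2:**
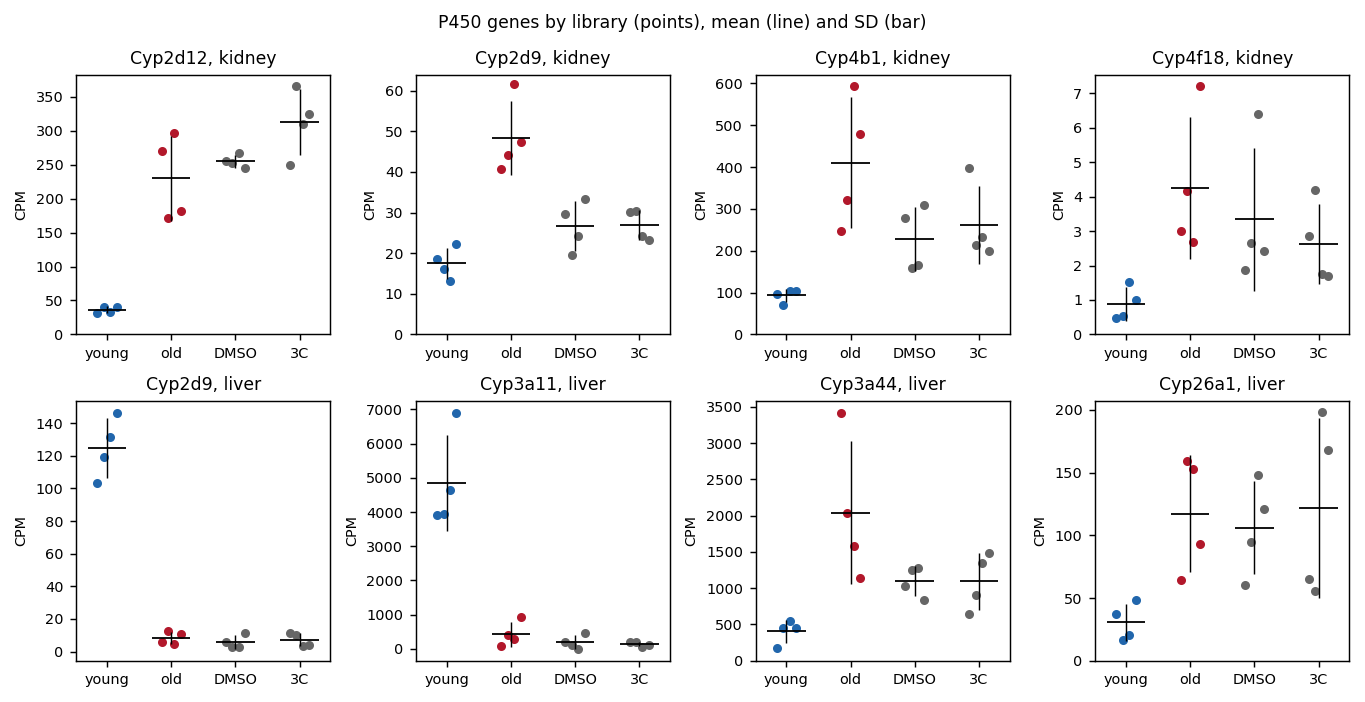
Level in CPM of 4 members in kidney (Cyp2d12, Cyp2d9, Cyp4b1, Cyp4f18) and 4 in liver (Cyp2d9, Cyp3a11, Cyp3a44, Cyp26a1), with 1 point per library for young, old, DMSO and 3C mice. In kidney the old points lie above the young points in all 4 panels, and in liver Cyp2d9 and Cyp3a11 lie lower and Cyp3a44 and Cyp26a1 higher in old than in young mice.

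In liver, 9 of 65 members tested were called with age, 3 higher and 6 lower, against 1.69% and 0.439% of all genes. Higher were Cyp3a44, Cyp3a41a and Cyp26a1. Lower were Cyp2d9, Cyp3a11, Cyp2c54, Cyp2c50, Cyp2c40 and Cyp4a31. The median log2 fold change of the 65 members was -0.41 and that of all genes 0.00. Groups did not overlap for 8 members that were higher and 14 that were lower in old liver, where 5.85% and 4.22% of all genes tested did so. All members together summed to 56015 CPM (SD 10376, n = 4) in young and 39167 CPM (SD 9021, n = 4) in old liver, and the groups overlapped. In the same livers the 4 macrophage markers summed to 297 to 447 CPM in young and 459 to 876 CPM in old libraries, with 1 called higher, and the 3 plasma cell markers to 2.95 to 4.48 CPM and 23.0 to 109 CPM, with all 3 called higher. The 7 hepatocyte markers summed to 219188 to 354449 CPM and 139561 to 288063 CPM, overlapped, and none was called. The part of these cells in the P450 results was not tested.

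Cyp2d9 had the largest fall among the 9, and moved against its own rise in kidney. It was at 103, 119, 131 and 146 CPM in young liver and 5.82, 12.4, 4.45 and 10.9 CPM in old liver. No old library came near a young one, with a 14.7-fold lower level (log2 fold change -3.87, SE 0.32, edgeR adjusted p = 0.000295). Its promoter in the RefSeq annotation (chr15:82452127-82452426, plus strand, GRCm38) is shown because this gene moved in opposite directions in the 2 tissues. Here and below capitals mark matches to searched motifs on either strand, and positions count from the first transcribed base, with -1 just before it. The only match is a TATA box (TATAAA) at -28, a motif held by 33 of 83 member promoters (39.8%) and by 13.6% of all 32851 promoters.
Cyp2d9: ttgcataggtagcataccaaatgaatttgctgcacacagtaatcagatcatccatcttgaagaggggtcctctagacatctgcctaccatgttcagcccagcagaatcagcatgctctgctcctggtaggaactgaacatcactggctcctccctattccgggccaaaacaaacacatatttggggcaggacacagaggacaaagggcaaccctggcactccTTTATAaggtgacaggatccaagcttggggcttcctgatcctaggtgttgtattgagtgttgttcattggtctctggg

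In the same livers 3 of 4 male-biased genes outside the family fell, Slco1a1 by 229-fold, and 2 of 4 female-biased genes rose, A1bg by 17.7-fold and Sult2a1 by 8.18-fold. Socs2, which is induced by growth hormone and restrains its signal, fell from 118, 201, 214 and 148 CPM to 33.1, 31.1, 23.8 and 13.5 CPM (log2 fold change -2.72, SE 0.30, edgeR adjusted p = 0.00153). Hmox1, which degrades heme, rose from 34.9, 35.6, 29.1 and 43.96 CPM to 107, 86.0, 83.6 and 70.5 CPM (log2 fold change 1.29, SE 0.19, edgeR adjusted p = 0.00852). These were the only 2 of 38 tested partner genes to be called. Por, the electron donor of the microsomal P450 enzymes, was at 539 to 661 CPM in young and 397 to 574 CPM in old liver and was not called. Among members, 10 female-biased liver genes were tested, of which 2 rose (Cyp3a41a and Cyp3a44) and 1 fell (Cyp2c40), with a median of 0.04, beside 1.69% of all genes higher and 0.439% lower. Of 3 male-biased members tested, Cyp2d9 fell and the others were not called, beside the same 0.439% of all genes lower.

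The Cyp3a genes, which clear steroids and a wide range of drugs, moved in opposite directions within a single cluster on chromosome 5. Cyp3a11 (chr5:145854426-145879964, minus strand, GRCm38), the main drug-inducible member, was at 3915, 3957, 4641 and 6908 CPM in young liver and 74.1, 402, 277 and 932 CPM in old liver. Every old library was far below every young one, and the gene was 11.5-fold lower (log2 fold change -3.52, SE 0.62, edgeR adjusted p = 0.0177). Without old replicate 4, the highest old library, it was 19.1-fold lower. Cyp3a44 (chr5:145773983-145805874, minus strand), the next gene in the cluster, was at 182, 446, 545 and 451 CPM in young and 3420.2, 2031, 1584 and 1136 CPM in old liver. All 4 old livers were above all young ones, by 5.10-fold (log2 fold change 2.35, SE 0.41, edgeR adjusted p = 0.0172). Cyp3a41a (chr5:145694049-145720136, minus strand), beyond Cyp3a44, had 209, 381, 432 and 240.3 CPM in young and 1077, 1037, 908 and 857 CPM in old liver. It too did not overlap, at 3.11-fold higher (log2 fold change 1.64, SE 0.25, edgeR adjusted p = 0.0104).

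In 82.9% of positions a window of 150 bases of the Cyp3a41a transcript was also found in another P450 gene, and its near-copy Cyp3a41b had 0 counts in all libraries. Reads that fit both genes may be missing from the counts, so the value of Cyp3a41a is uncertain. Cyp3a16, on the far side of this pair, was at 141, 154, 397 and 180.2 CPM in young and 1081, 1078, 462 and 272 CPM in old liver, overlapped and was not called (log2 fold change 1.75, SE 0.47, edgeR adjusted p = 0.0838). Cyp3a25, on the other side of Cyp3a11, was at 641 to 1129 CPM and 554 to 991 CPM (log2 fold change 0.07, SE 0.25). The sum over the subfamily was 5509 to 9384 CPM in young and 4523 to 7670 CPM in old liver, so the groups overlapped while members moved apart. Per kb of exon Cyp3a11 was at 953 CPM per kb and Cyp3a44 at 207 in young liver, and at 82.7 and 1041 CPM per kb in old liver. Per kb of the longest coding transcript Cyp3a11 was at 2071 and 180 CPM per kb, with Cyp3a44 as before.

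**Figure D3:**
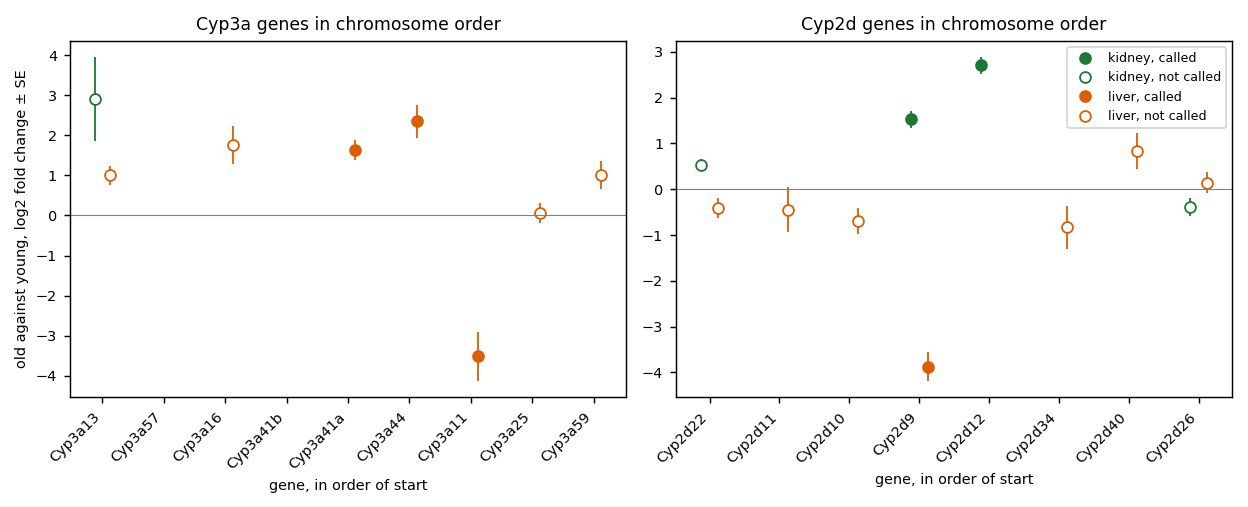
Log2 fold change with age (old against young) with its standard error for the Cyp3a and Cyp2d genes in chromosome order, for kidney and liver. Cyp3a44 and Cyp3a41a lie above 0 beside Cyp3a11 far below it in liver, and Cyp2d9 lies above 0 in kidney and far below it in liver.

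The promoters of these neighbours are shown because genes of opposite direction stand next to each other. They are taken from RefSeq at chr5:145879805-145880104 (Cyp3a11), chr5:145720087-145720386 (Cyp3a41a) and chr5:145805825-145806124 (Cyp3a44), all on the minus strand of GRCm38.
Cyp3a11: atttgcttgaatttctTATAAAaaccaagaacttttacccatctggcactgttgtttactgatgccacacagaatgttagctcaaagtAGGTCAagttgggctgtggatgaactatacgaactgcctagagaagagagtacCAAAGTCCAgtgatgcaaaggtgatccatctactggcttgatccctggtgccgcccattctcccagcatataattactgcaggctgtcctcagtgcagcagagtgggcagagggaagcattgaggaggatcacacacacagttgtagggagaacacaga
Cyp3a41a: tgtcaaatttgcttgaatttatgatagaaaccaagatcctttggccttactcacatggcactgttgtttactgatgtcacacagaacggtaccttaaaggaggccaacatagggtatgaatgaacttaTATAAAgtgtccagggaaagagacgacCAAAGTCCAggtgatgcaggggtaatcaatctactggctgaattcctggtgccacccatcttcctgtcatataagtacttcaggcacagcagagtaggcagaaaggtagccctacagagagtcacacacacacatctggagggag
Cyp3a44: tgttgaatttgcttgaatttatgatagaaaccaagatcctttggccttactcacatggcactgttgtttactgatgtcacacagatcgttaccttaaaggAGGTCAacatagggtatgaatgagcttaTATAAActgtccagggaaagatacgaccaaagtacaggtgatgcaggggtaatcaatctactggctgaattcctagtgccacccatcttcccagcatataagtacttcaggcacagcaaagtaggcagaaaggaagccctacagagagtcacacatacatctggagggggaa
Cyp3a41a and Cyp3a44, which both rose, are 94.3% identical over the aligned bases, and Cyp3a11 is 78.5% and 79.6% identical to them. The 3 windows differ in the motifs searched. CAAAGTCCA, a binding motif of the hepatocyte factor HNF4, is found at -109 in Cyp3a11 and -95 in Cyp3a41a. Cyp3a44 differs from Cyp3a41a within that stretch by C7A, counting from 1 at the 5′ end of the motif, and so has no match. This motif was in 10 of 83 member promoters (12.05%) and in 0.475% of all promoters. The nuclear receptor core AGGTCA is found at -162 in Cyp3a11 and -150 in Cyp3a44, and in 26.5% of member promoters and 16.3% of all. TATAAA is found at -234 in Cyp3a11 and at -122 in the other two. GCGTG, the core bound by the aryl hydrocarbon receptor, the STAT motif and the HNF1 motif are in none of the 3 windows. In 83 member promoters GCGTG was in 20.5%, against 32.4% of all, the STAT motif in 6.02% against 8.30%, and the HNF1 motif in 3.61% against 0.399%.

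Cyp26a1 (chr19:37697798-37701536, plus strand, GRCm38), which breaks down retinoic acid and is itself induced by it, was at 37.1, 16.3, 20.7 and 48.1 CPM in young and 64.2, 159, 153 and 93.1 CPM in old liver. Every old value was higher, by 3.89-fold (log2 fold change 1.96, SE 0.38, edgeR adjusted p = 0.0258). The relative Cyp26b1 was at 4.57 to 22.9 CPM and 5.11 to 80.7 CPM, overlapped and was not called (log2 fold change 1.57, SE 0.66, edgeR adjusted p = 0.292). The Cyp26a1 promoter (RefSeq, chr19:37697558-37697857, plus strand) is shown because it carries, at -32, a pair of AGTTCA cores spaced as in a retinoic acid response element. Only 8 of 32851 promoters (0.0244%) held this motif, and it was in no other of the 83 promoters found for 73 of the 94 members. A TATAAA match lies at 30.
Cyp26a1: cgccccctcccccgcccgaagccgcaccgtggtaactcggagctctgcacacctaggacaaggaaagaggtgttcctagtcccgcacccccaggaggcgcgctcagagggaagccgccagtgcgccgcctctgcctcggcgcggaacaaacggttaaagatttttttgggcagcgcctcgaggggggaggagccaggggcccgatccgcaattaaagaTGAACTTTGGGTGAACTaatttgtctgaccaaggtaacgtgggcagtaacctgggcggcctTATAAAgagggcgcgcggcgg

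The Cyp2c genes, which oxidise drugs and arachidonic acid, were below 0 in 12 of 13 members tested, beside 49.6% of all genes, and 3 were called lower, beside 0.439% of all genes. Cyp2c50 was at 1782, 1998, 2019 and 2723 CPM in young and 309, 580.2, 674 and 1248 CPM in old liver. Cyp2c54 went from 627, 1006, 1099 and 1175 CPM to 73.4, 45.4, 202 and 329 CPM. Cyp2c40 went from 1251, 1136, 1829 and 1332 CPM to 639, 493, 254 and 563 CPM. None of the 3 overlapped between the age groups. They were 3.01-fold (edgeR adjusted p = 0.0478), 5.95-fold (0.0345) and 2.81-fold lower (0.0251), with log2 fold changes of -1.59 (SE 0.37), -2.57 (SE 0.54) and -1.49 (SE 0.29). Transcript windows of Cyp2c40 are shared with another P450 gene in 29.1% of positions. The abundant Cyp2c29 did not follow, at 2553 to 4371 CPM in young and 1969 to 4133 CPM in old liver (log2 fold change -0.07, SE 0.28).

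Among the fatty acid hydroxylases, Cyp4a31 was at 14.8, 16.7, 54.8 and 29.6 CPM in young and 12.7, 5.38, 4.21 and 3.36 CPM in old liver. Its groups did not overlap and it was 4.48-fold lower (log2 fold change -2.16, SE 0.50, edgeR adjusted p = 0.0483). The other PPARA targets tested were also below 0 without a call. Cyp4a10 was at 585, 789.9, 3777 and 961 CPM in young and 684, 609.5, 88.1 and 578 CPM in old liver. Cyp4a14 was at 812, 802, 3910.3 and 1647 CPM in young and 385, 1041, 142 and 967 CPM in old liver. In both genes young replicate 3 was the highest library and old replicate 3 the lowest, and the groups overlapped. The summed level of 5 fasting and PPARA response genes outside the family had the same highest and lowest library, at 1592, 1234, 3456 and 1972 CPM in young and 1020, 969, 523 and 1046 CPM in old liver. These sums did not overlap and none of the 5 genes was called. Their part in the Cyp4a31 result was not tested. Cyp2e1 was at 9604, 10272, 11730.2 and 13406 CPM in young and 5572, 6459, 4736 and 8364 CPM in old liver, each old value lower, and did not pass (log2 fold change -0.83, SE 0.25, edgeR adjusted p = 0.13). Cyp1a2, which demethylates caffeine, was at 734 to 2116 CPM and 309 to 807 CPM and overlapped (log2 fold change -1.33, SE 0.35, edgeR adjusted p = 0.0828). Cyp17a1, a steroid hydroxylase, was at 204 to 276 CPM in young liver and spread from 207 to 1194 CPM in old liver.

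Cyp2d9 and Cyp3a41a kept their liver calls under all 14 alternative fits. The other 7 calls were lost in some fit that left out a library, with fold changes of unchanged direction. With all libraries kept, Cyp2c50 (edgeR adjusted p = 0.0522) and Cyp4a31 (0.0583) were lost when genes needed a mean of at least 1 CPM, and Cyp4a31 with RLE size factors (0.0502). Cyp3a11 was lost without young replicate 3 (edgeR adjusted p = 0.0541) or old replicate 3 (0.0622), and Cyp3a44 without young replicate 2 (0.056) or 3 (0.052). Cyp26a1 was lost without young replicate 1, 2 or 3 or old replicate 2 or 3, with edgeR adjusted p-values of 0.062 to 0.0998. Cyp2c40, Cyp2c50 and Cyp2c54 were each lost without any young replicate, and also without old replicate 2 (Cyp2c40 and Cyp2c50) or 3 (Cyp2c50 and Cyp2c54), with edgeR adjusted p-values of 0.0507 to 0.134. Cyp4a31 was lost without any library but old replicate 1, with edgeR adjusted p-values of 0.0701 to 0.159. The 6 lower calls became 1 without young replicate 3 and 7 without old replicate 1, and the 3 higher calls became 1 without young replicate 2 or 3, 5 without old replicate 1 and 7 without old replicate 4.

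The age effect differed between liver and kidney for 6 of 72 members, all more negative in liver, against 0.845% of all genes more negative and 0.871% more positive by adjusted p alone. Cyp2d9 led, with a difference of -5.35 on the log2 scale (SE 0.38, edgeR adjusted p = 2.59e-06). Cyp4b1 rose in kidney and was at 25.7 to 40.8 CPM in young and 39.1 to 46.1 CPM in old liver, with a difference of -1.74 (SE 0.33, edgeR adjusted p = 0.0146). Cyp4f14, a leukotriene B4 hydroxylase, was at 6.56 to 8.50 CPM in young and 13.9, 12.3, 13.5 and 9.95 CPM in old kidney, with replicate 2 within the range of the others, but 755 to 1016 and 385 to 681 CPM in liver, with a difference of -1.41 (SE 0.27, edgeR adjusted p = 0.0152). Cyp2d12 (difference -2.84, SE 0.56, edgeR adjusted p = 0.0182), Cyp4a12a and Cyp3a11 were near 0 in the other tissue, so their differences rest on few reads there. Cyp3a11 in kidney was at 0 to 0.351 CPM in young and 0.0823, 3.15, 0.930 and 0.148 CPM in old libraries. Its highest value belongs to replicate 2, the library with liver transcripts, and without it the difference moved from -7.11 to -5.60 on the log2 scale and was no longer called (edgeR adjusted p = 0.0681). It was -9.27 without young kidney replicate 3 and -7.86 without old liver replicate 4. The difference of Cyp4a12a, -6.70 with all libraries, was -5.76 without young liver replicate 3, -6.07 without old kidney replicate 4 and -8.75 without old liver replicate 3. Cyp3a11 also lost its call without young kidney replicate 1, 2 or 4. The same held without young liver replicate 4 or old liver replicate 2 (edgeR adjusted p = 0.0501 to 0.0719 over these fits). Cyp2d12 was lost without young liver replicate 2 (0.0645), and Cyp4a12a without young liver replicate 3 (0.059) or old liver replicate 2 (0.0615). With the replicate number within each age as a block shared by kidney and liver, a pairing seen for every number in young but not in old mice, Cyp2d12 and Cyp3a11 were no longer called (edgeR adjusted p = 0.0667 for both) and the count of 6 became 4. The count of 6 became 24 by DESeq2 and 10 without old kidney replicate 4 or without old liver replicate 1.

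**Figure D4:**
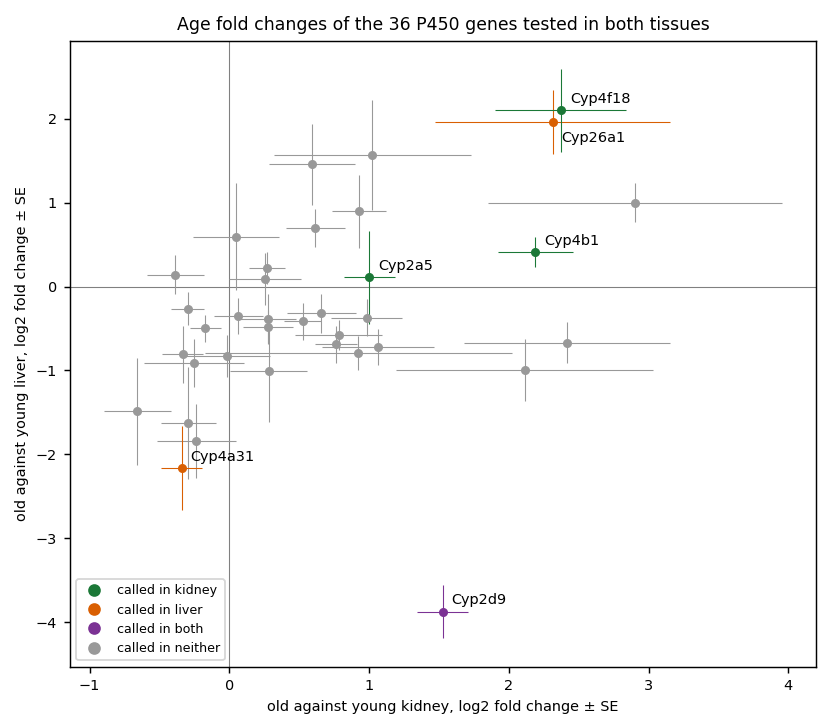
Log2 fold change with age in kidney (horizontal) against liver (vertical) for the 36 members tested in both tissues, coloured by call. Cyp2d9, at the lower right, is the only member called in both tissues, higher in old kidney and lower in old liver.

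The DMSO and 3C mice were close in age to the old mice, and their values are given beside the young range without a test. Of the 6 members called with age in kidney, all 4 DMSO kidneys lay beyond the young range for 3 and all 4 3C kidneys for all 6, beside 81.5% and 67.7% of all 882 genes called with age in kidney. These genes were chosen for their distance from the same young libraries, so nothing is read from the counts. Cyp2d12 was at 255, 253, 268 and 244 CPM in the DMSO kidneys. Of the 9 members called in liver, all 4 DMSO livers lay beyond the young range for 8 and all 4 3C livers for 7, beside 60.7% and 54.7% of all 267 genes called with age in liver. Cyp3a11 was at 213, 104, 9.0 and 476 CPM in the DMSO livers, a wide spread in which no library reached the young range.

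In fibroblasts, 3C raised 1 of 19 members tested and lowered none, against 1.23% of all genes higher and 0.632% lower. Cyp2f2, which oxidises naphthalene and is best known from the airway and liver, was at 4.52, 3.30 and 5.27 CPM with DMSO and 14.7, 12.2 and 13.5 CPM with 3C. All 3 treated libraries were above all controls, by 3.12-fold (log2 fold change 1.64, SE 0.19, edgeR adjusted p = 0.00146), and the call held in all 12 alternatives. Members that passed by adjusted p alone numbered 2 higher, against 2.43% of all genes, and 2 lower, against 1.78%. Cyp1b1, the leading member of these cells, went from 105, 122 and 125 CPM to 157, 186 and 204 CPM (log2 fold change 0.65, SE 0.14, edgeR adjusted p = 0.0269). Cyp26b1 went from 13.8, 11.3 and 13.8 CPM to 9.15, 5.80 and 6.05 CPM (log2 fold change -0.88, SE 0.19, edgeR adjusted p = 0.0315). Cyp4a12b went from 4.62, 5.11 and 5.56 CPM to 2.02, 3.07 and 2.52 CPM (log2 fold change -0.99, SE 0.22, edgeR adjusted p = 0.0315). None of the 4 overlapped between the groups.

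In the mice, 3C changed no member past the threshold. In kidney 0 of 46 members tested were called by edgeR and 8 had an unadjusted p under 0.05, and in liver 0 of 66 were called and 2 had an unadjusted p under 0.05, where 0% of all genes were called in either tissue. DESeq2 also called none. The fatty acid hydroxylases Cyp4a14 and Cyp4a10 were among the 8 in kidney. Cyp4a14 was at 234, 153, 179 and 289 CPM with DMSO and 367, 354, 237 and 251 CPM with 3C, so the groups overlapped (log2 fold change 0.47, SE 0.20, edgeR adjusted p = 0.374). Cyp2f2, the gene that rose in fibroblasts, was at 915, 956, 1192 and 1236 CPM in DMSO and 938, 619.6, 884 and 1039 CPM in 3C liver. The 3C effect differed between liver and kidney for 0 of 74 members by edgeR, where 8 had an unadjusted p under 0.05 and 0% of all genes were called.

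Open chromatin was counted at the start sites of the P450 genes. A peak within 1 kb in at least 2 of 3 libraries was found at 39 of 93 annotated members in young kidney (41.9%), 32 in old kidney (34.4%), 50 in young liver (53.8%) and 38 in old liver (40.9%), beside 65.2%, 63.2%, 61.1% and 61.0% of all genes. The difference between members and all genes was not tested. Peaks were called by the authors in each library on its own, and fold enrichment is the pileup over the local background. The counts of members were lower in old than in young tissue in both organs, a difference that was not tested. With peaks of a −log10 q of at least 5 the counts in young and old were 28 and 25 in kidney, beside 58.8% and 56.5% of all genes, and 22 and 20 in liver, beside 49.8% and 50.1%. With an equal number of top peaks they were 35 and 30 in kidney, beside 62.9% and 62.7% of all genes, and 48 and 35 in liver, beside 60.1% and 60.3%. Old kidney libraries held 93072 to 108970 peak intervals against 115836 to 128395 in young kidney, and old liver libraries 112125 to 136849 against 123776 to 130409 in young liver.

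Cyp2d12, the strongest riser in kidney, had no peak in young kidney and peaks in 2 of 3 old kidney libraries, at 2.01-fold and 2.38-fold. Cyp4f18 had a peak in 1 of 3 young kidneys (2.22-fold) and in 3 of 3 old kidneys (2.94-fold to 7.63-fold). Cyp4b1 and Cyp2a5 had a peak in all 6 kidney libraries, so these genes differed in RNA and not in the presence of a peak. In liver, Cyp3a11 had a peak in 2 young libraries, at 2.76-fold and 2.95-fold, and in no old library, as did Cyp2c50 (2.69-fold and 3.35-fold). Cyp4a31 went from 3 young to 1 old liver library while all 6 kidney libraries had a peak. Cyp3a44, whose RNA rose, went from 2 young to 1 old liver library, Cyp3a41a had none in liver, and Cyp26a1 went from 2 to 1. Cyp2d9 had a peak in 1 young kidney library (2.96-fold) and in no other library. Only Cyp26a1, Cyp4a32 and Cyp2e1 went from a peak in all 3 young to none of the old libraries, in kidney in each case, and none of their kidney RNA levels was called as changed.

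**Figure D5:**
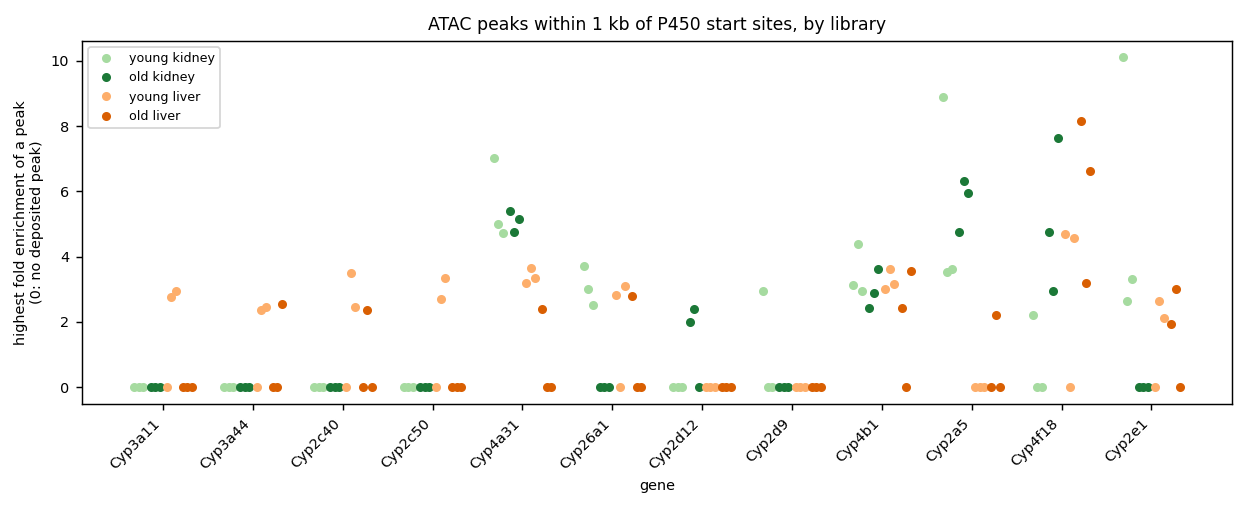
Highest fold enrichment of an ATAC-seq peak within 1 kb of the start site of 12 members, with 1 point per library for young and old kidney and liver, and libraries without a peak at 0. Cyp2d12 shows points above 0 only in old kidney, and Cyp3a11 only in young liver.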

How the data were processed

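RNA was measured in 38 libraries and open chromatin in 12, grouped by their labels. After trimming (Trimmomatic 0.39) and alignment to mm10 (HISAT2 2.2.1), the authors deposited whole-number read counts per gene from HTSeq 0.12.4, taken without strand, so reads of overlapping antisense genes cannot be told apart. Depth was 14238228 to 43704147 counts per library. Reads assigned to no gene (5.85% to 19.1% per library) were left out. For ATAC-seq the authors used Bowtie2 2.3.5.1 and MACS2 in each library and deposited peaks with their fold enrichment and −log10 q-values. Authors' own comparisons were not used.

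Genes passing edgeR's filter (minimum count 10) were fitted with TMM scaling and its quasi-likelihood test (edgeR 4.0.16, limma 3.58.1, R 4.3.3) within each comparison. P-values were adjusted by Benjamini-Hochberg over all genes tested, and a call needed an adjusted p under 0.05 and a fold above 2 or below 0.5, or the adjusted p alone for differences of effects between tissues. The scripts were tested on simulated counts. Tables were handled with Python 3.11.15, pandas 2.3.3, numpy 2.4.6 and scipy 1.17.1. Levels are CPM scaled jointly over all RNA libraries, so a fitted fold can differ slightly from the ratio of mean levels. Gene positions and exon lengths came from GENCODE vM21 on GRCm38, the assembly of mm10, with 93 of 94 members found, and promoter sequences from RefSeq (GRCm38.p6, 83 promoters of 73 of the 94 members). Genes named in the text are the called members, members of the pathway lists and the members with the highest levels, and partner genes were listed alongside. The members and lists were chosen with earlier results of these data known.

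Alternatives were DESeq2 1.42.0, its size factors (RLE), no filter on low counts, a mean of at least 1 CPM, the adjusted p alone, the replicate number as a block and leaving out each library, and for peaks a −log10 q of at least 5, an equal number of top peaks, and a summit within 500 bp. Replicate numbers were checked for pairing by correlating deviations from the group means. Between young kidney and young liver every number correlated above 0.1 (0.173 to 0.598), so these numbers were taken to pair the samples. Between the 3C tissues they did so too (0.109 to 0.294), but no test compared those groups alone. In the other pairs of groups compared at least 1 number did not. Between DMSO kidney and DMSO liver the correlations were 0.0191 to 0.173, yet each library matched its own number best, so pairing there was not settled.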

Additional observations from a re-analysis of the deposited data

Results flagged for a closer look

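Among the members the text turns on, 30 sets of 4 libraries, each a gene in a group, were examined for a library far from the rest. In 1 set a library stood apart, where chance alone sets one apart in about 1 set in 20. Cyp2a5 in old kidney replicate 3 stood at 89.6 CPM, against 52.2 to 57.6 CPM in the other old kidneys.

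The age effect of 6 members differed between liver and kidney by the test of the difference itself. The differences, liver minus kidney on the log2 scale, were -5.35 for Cyp2d9, -2.84 for Cyp2d12, -1.41 for Cyp4f14, -6.70 for Cyp4a12a, -1.74 for Cyp4b1 and -7.11 for Cyp3a11, with edgeR adjusted p-values of 2.59e-06, 0.0182, 0.0152, 0.0234, 0.0146 and 0.0259. For Cyp4a12a the old livers held 1 read in all, and for Cyp3a11 the young kidneys held 7, so these 2 differences rest on almost no reads in 1 group each.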

How the results depend on the processing

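Over all comparisons and named members, 2601 of the values recomputed under an alternative kept their direction and their side of the threshold, or stayed within the set range, 67 kept their direction but lost the threshold, 28 counts moved and 0 reversed. Calls held in every alternative for 4 of 6 members with age in kidney, 2 of 9 in liver and 3 of 6 differences in age effect. In the 2 tissue contrasts 59 of 61 and 58 of 58 calls did. The 6 members higher in old kidney became 10 by adjusted p alone and 4 to 8 when 1 library was left out, and Cyp2d12, Cyp2d9, Cyp4b1 and Cyp4f18 were called under all 14 alternatives. The 3 higher in old liver became 7 by DESeq2, 5 with no filter on low counts and 1 to 7 without 1 library, and the 6 lower became 1 to 7. The 1 member higher in 3C fibroblasts became 2 by DESeq2, with no filter, by adjusted p alone and 1 to 2 without 1 library, and the 0 lower became 2 by adjusted p alone and 0 to 1 without 1 library. The 6 members with a more negative age effect in liver became 24 by DESeq2 and 4 to 10 without 1 library. The cause of these differences was not tested. With the replicate number as a block, the counts were 4 higher in old kidney, 1 higher and 5 lower in old liver, 2 higher and 1 lower in 3C fibroblasts and 4 for the difference in age effect, while the young tissue contrast, where the numbers pair the samples, kept 7 higher and 54 lower. Named calls lost under the block were Cyp2a5 and Cyp4a12a in kidney and Cyp26a1, Cyp2c40, Cyp3a44 and Cyp4a31 in liver. In the other contrasts of 2 groups tested the numbers were not taken to pair the samples. For DMSO kidney against DMSO liver, where pairing was not settled, all 58 calls held in every alternative that tested them. At a −log10 q of at least 5, peaks in at least 2 libraries were found at 22 members in young liver and 20 in old liver. Requiring both of the libraries that remained when 1 was left out gave 35 to 43 members in young liver, 25 to 28 in old liver, 35 to 37 in young kidney and 28 to 31 in old kidney.

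Groups of 3 or 4 libraries, paralogs that share reads, genes with few counts such as Cyp4f18 and Cyp4a12a, and liver transcripts in old kidney replicate 2 limit these values. Feeding state and hour of collection are not given for the DMSO and 3C animals, and the methods give neither for the untreated mice. Sex is not given for the DMSO and 3C animals, but their libraries held no Y-linked reads and Xist at 250.3 to 1335 CPM.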

Other observations

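Among the smaller families, Cyp20a1, an enzyme without a settled substrate, was at 14.9 to 19.5 CPM in young kidney, 19.3 to 31.3 CPM in young liver and 38.4 to 48.7 CPM in DMSO fibroblasts. Cyp46a1, the cholesterol hydroxylase of the brain, was at 1.11 to 1.35 CPM in young kidney and 0.977 to 2.55 CPM in young liver, and reached 13.1 CPM in a 3C liver library. Of the 6 steroid hormone members, Cyp17a1 passed the count filter with age in liver, and the other 5 did so in neither tissue. In old kidney Cyp11a1, which starts steroid hormone synthesis from cholesterol, was at 0.148 to 0.589 CPM, and Cyp17a1 was at 0.116, 0.123 and 0.198 CPM and, in replicate 2, the library with liver transcripts, at 11.2 CPM.

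Cyp2a4, a testosterone hydroxylase closely related to Cyp2a5, was at 147 to 241 CPM in young and 296 to 491 CPM in old kidney, without overlap (log2 fold change 0.93, SE 0.19, edgeR adjusted p = 0.0138, short of the fold limit). Cyp2g1, an olfactory P450, was at 6.60 to 14.8 CPM in young and 18.7 to 48.3 CPM in old liver, without overlap, and was not called (log2 fold change 1.34, SE 0.34, edgeR adjusted p = 0.0729).

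The summed level of 5 clock genes was 283 CPM in 3C kidney replicate 1 against 118 to 144 CPM in the other 3C kidneys, 476 CPM in 3C liver replicate 1 against 120 to 171 CPM in the other 3C livers, and 68.8 CPM in old liver replicate 1 against 141 to 190 CPM in the other old livers. The part of these libraries' clock levels in the P450 results was not tested.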
